A study of Mus musculus with 42 samples.

Results

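The loci of 7 genes of the core and epiblast pluripotency programme, Pou5f1, Nanog, Sall4, Otx2, Pou3f1, Utf1 and Dnmt3b, were followed through every peak list of a ChIP–seq series on mouse epiblast-like cells. They were chosen by name, and are 7 of the 21938 protein-coding gene loci of the annotation. A locus was the gene body extended by 10 kb on either side, and a peak belonged to it when at least 1 bp overlapped. Together the 7 loci spanned 231.109 kb and held 1978 of the 9218878 peaks in 30 lists. Cells of the HM1 (129) strain were differentiated for 72 h (day 3) from embryonic stem cells in N2/B27 medium with bFGF (10 ng/ml) and LGK974 (5 uM), an inhibitor of WNT secretion, which every group received. CHIR99021, a GSK3 inhibitor that activates WNT signalling, was added on the last day (CHIR) or left out (noCHIR). SOX2 was immunoprecipitated from wild-type (WT) cells with noCHIR and with CHIR. SOX2, β-catenin and LEF1 were immunoprecipitated with CHIR from WT cells, from Cdx1,2,4-/- cells (CdxKO) and from T/Bra-/- cells (T/BraKO). This made 10 groups of 3 libraries, labelled as biological replicates. Each genotype came from its own cell line, so line and genotype cannot be told apart, and peak lists hold no expression values with which to check the deletions or the cell type.

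Pou5f1 (OCT4) and Nanog are transcription factors at the centre of the pluripotency network, and OCT4 binds DNA jointly with SOX2 at composite sites in many enhancers of these cells. Sall4 is a zinc finger factor of the same network. When naive cells move towards the post-implantation epiblast, Otx2 and Pou3f1 (OCT6) rise and accompany the redeployment of OCT4 to other enhancers, and the de novo DNA methyltransferase Dnmt3b rises with them. Utf1 is a chromatin-associated factor whose enhancer is a classical target of OCT4 and SOX2. WNT signals stabilise β-catenin, which reaches DNA through TCF/LEF proteins, LEF1 among them.

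Peaks of each list were ordered by −log10 q, rank 1 being the best, and the 20000 best were compared, because the lists held between 26940 and 1008922 peaks. Merging these peaks over all 30 libraries gave 96 sites in the 7 loci, of which 29 were called in at least 2 of the 3 libraries of some group and are described here. A site is named by the distance from its best SOX2 summit to the start of the gene in the annotation, in the direction of transcription. The site with the best mean log2 SOX2 rank over the 12 SOX2 libraries is shown first for each locus, as the sequence around its summit in mm10, forward strand. Capitals mark matches, on either strand, to 4 kinds of word. The SOX word was CCNTTGT with A or T at N. The TCF/LEF word was CTTTGAN with A or T at N. The octamer was ATGCNAAT, which OCT factors bind. The composite of a SOX2 and an OCT4 half-site was CNTTGT, followed after any letter by ATGC. The Nanog sequence stops at the gene start.
Pou5f1, 890 bp upstream, chr17:35505028-35505227: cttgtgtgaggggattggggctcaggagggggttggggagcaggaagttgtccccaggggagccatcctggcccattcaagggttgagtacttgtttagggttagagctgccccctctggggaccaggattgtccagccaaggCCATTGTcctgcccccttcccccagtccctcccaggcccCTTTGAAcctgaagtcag
Pou5f1, 1960 bp upstream, chr17:35503958-35504157: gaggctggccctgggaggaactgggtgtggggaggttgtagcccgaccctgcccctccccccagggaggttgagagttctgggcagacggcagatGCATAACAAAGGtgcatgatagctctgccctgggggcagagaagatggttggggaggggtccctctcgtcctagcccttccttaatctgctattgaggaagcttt
Nanog, 39 bp upstream, chr6:122707350-122707488: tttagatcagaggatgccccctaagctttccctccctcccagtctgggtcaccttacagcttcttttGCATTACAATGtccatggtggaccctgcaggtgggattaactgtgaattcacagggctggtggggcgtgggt
Sall4, 9299 bp upstream, chr2:168777142-168777341: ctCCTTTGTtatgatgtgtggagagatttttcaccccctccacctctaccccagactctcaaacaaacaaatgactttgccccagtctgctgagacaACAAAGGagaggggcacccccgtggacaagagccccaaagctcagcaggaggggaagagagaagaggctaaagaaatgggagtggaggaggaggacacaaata
Otx2, 10709 bp downstream of the start, chr14:48663010-48663209: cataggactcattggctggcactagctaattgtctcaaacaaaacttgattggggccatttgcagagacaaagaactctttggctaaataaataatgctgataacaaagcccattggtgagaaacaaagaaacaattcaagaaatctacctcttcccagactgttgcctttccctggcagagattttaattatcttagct
Pou3f1, 11119 bp downstream of the start, chr4:124667826-124668025: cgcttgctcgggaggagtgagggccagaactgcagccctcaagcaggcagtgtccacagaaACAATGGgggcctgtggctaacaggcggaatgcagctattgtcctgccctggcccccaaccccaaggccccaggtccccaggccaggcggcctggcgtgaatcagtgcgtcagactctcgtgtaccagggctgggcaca
Utf1, 1896 bp downstream of the start, chr7:139945585-139945784: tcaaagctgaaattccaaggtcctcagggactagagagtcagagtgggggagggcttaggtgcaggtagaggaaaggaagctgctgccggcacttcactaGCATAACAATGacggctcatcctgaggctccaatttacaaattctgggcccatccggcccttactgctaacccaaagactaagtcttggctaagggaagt
Dnmt3b, 6197 bp upstream, chr2:153643153-153643352: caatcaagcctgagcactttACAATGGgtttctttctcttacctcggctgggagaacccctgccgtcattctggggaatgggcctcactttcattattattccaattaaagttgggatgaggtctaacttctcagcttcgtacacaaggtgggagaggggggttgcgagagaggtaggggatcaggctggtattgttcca
The second Pou5f1 site was added after its ranks had been seen. The composite was found at Pou5f1 1960 bp upstream, at Nanog and at Utf1. A SOX word was found at both Pou5f1 sites, Sall4, Pou3f1 and Dnmt3b, a TCF/LEF word at Pou5f1 890 bp upstream, and none of the words at Otx2.

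A further 5 sites are shown because SOX2 was called there in 3 of 3 noCHIR libraries and in 0 of 3 WT CHIR libraries. None of them held any of the words in capitals or the CDX or T-box words searched below.
Nanog, 8584 bp downstream of the start, chr6:122715973-122716172: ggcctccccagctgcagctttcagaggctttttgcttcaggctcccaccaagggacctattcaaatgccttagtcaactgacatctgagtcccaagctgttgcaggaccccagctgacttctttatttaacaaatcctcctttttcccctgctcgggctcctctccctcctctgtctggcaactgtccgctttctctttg
Pou3f1, 10068 bp upstream, chr4:124646639-124646838: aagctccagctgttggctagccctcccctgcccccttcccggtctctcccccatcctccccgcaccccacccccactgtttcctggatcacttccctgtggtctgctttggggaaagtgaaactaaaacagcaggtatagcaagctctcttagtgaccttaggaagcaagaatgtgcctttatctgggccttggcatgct
Pou3f1, 5368 bp downstream of the start, chr4:124662075-124662274: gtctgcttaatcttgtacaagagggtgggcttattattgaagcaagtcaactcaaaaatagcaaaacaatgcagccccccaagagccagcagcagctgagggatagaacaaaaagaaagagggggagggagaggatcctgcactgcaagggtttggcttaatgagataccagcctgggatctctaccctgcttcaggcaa
Utf1, 1187 bp upstream, chr7:139942502-139942701: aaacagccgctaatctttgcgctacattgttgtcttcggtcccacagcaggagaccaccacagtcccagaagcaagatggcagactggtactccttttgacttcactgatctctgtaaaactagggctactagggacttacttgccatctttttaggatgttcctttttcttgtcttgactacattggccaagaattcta
Dnmt3b, 9755 bp upstream, chr2:153639595-153639794: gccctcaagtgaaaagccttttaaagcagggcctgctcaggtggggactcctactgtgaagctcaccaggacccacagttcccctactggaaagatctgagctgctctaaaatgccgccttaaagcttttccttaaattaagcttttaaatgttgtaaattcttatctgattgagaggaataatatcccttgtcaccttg
In this direction 5 of the 48 SOX2 regions of the 7 loci met the rule, in 4 of the 7 genes, beside 3.89% of the 76008 regions of the genome. In the opposite direction 0 of the 48 did, beside 0.146%. Called in all 6 WT libraries were 3 of the 48, beside 2.09%, and these were the Pou5f1 sites 890 and 1960 bp upstream and the Sall4 site 9299 bp upstream. In the full lists 1 region was left in the noCHIR direction and 2 met the rule in the CHIR direction, so the first count describes which sites were among the best peaks and not whether any peak was found.

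To ask how WNT activation altered SOX2 occupancy of these genes, WT CHIR was compared with noCHIR. Fewer SOX2 peaks lay in the loci with CHIR. The noCHIR libraries had 31, 32 and 28 among their 20000 best, and the WT CHIR libraries 15, 12 and 21. The means were 30.3 ± 2.08 and 16 ± 4.58 (SD, n = 3), and the groups did not overlap. The CdxKO libraries had 19, 26 and 20 and the T/BraKO libraries 21, 23 and 26, so all 9 CHIR libraries lay below all 3 noCHIR libraries. No p-value is given for a sum over genes chosen with earlier results known. Over all gene loci the mean number of SOX2 peaks in a locus was 0.751 ± 0.0220 with noCHIR and 0.744 ± 0.0503 with CHIR (SD, n = 3). As 20000 peaks were kept from every list, this mean was nearly fixed in advance and could not show a fall over the genome. In the full lists the direction turned, with 72, 65 and 83 peaks in the loci for noCHIR and 149, 61 and 80 for CHIR, where WT CHIR replicate 1 held the 149 and also the longest list, of 1008922 peaks.

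Otx2, Pou3f1 and Dnmt3b had fewer SOX2 peaks in every WT CHIR library than in every noCHIR library. These are 3 of the 7 genes, beside 3.78% of the 16669 gene loci with a peak in any of the 6 lists. Loci with a peak in only 1 list are among them and could not meet this rule. With noCHIR the 7 genes had 4.33 SOX2 peaks per locus and all gene loci 0.751, so the genes could meet it more readily. The shares over all loci in this paragraph thus come mostly from loci with fewer peaks to lose. None of the 7 had more in every CHIR library, beside 2.27%. The mean was lower with CHIR in 6 of the 7 and equal for Pou5f1, and it was lower in 37.9% of all those loci. Without WT CHIR replicate 1 the count was again 3 of 7, beside 6.41% of all loci. It was 5, beside 8.35%, without WT CHIR replicate 3, and 4, beside 5.68%, without noCHIR replicate 1. It was 3, beside 5.89%, without WT CHIR replicate 2 and also without noCHIR replicate 2. Without noCHIR replicate 3 it was 3, beside 7.05%.

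**Figure D1:**
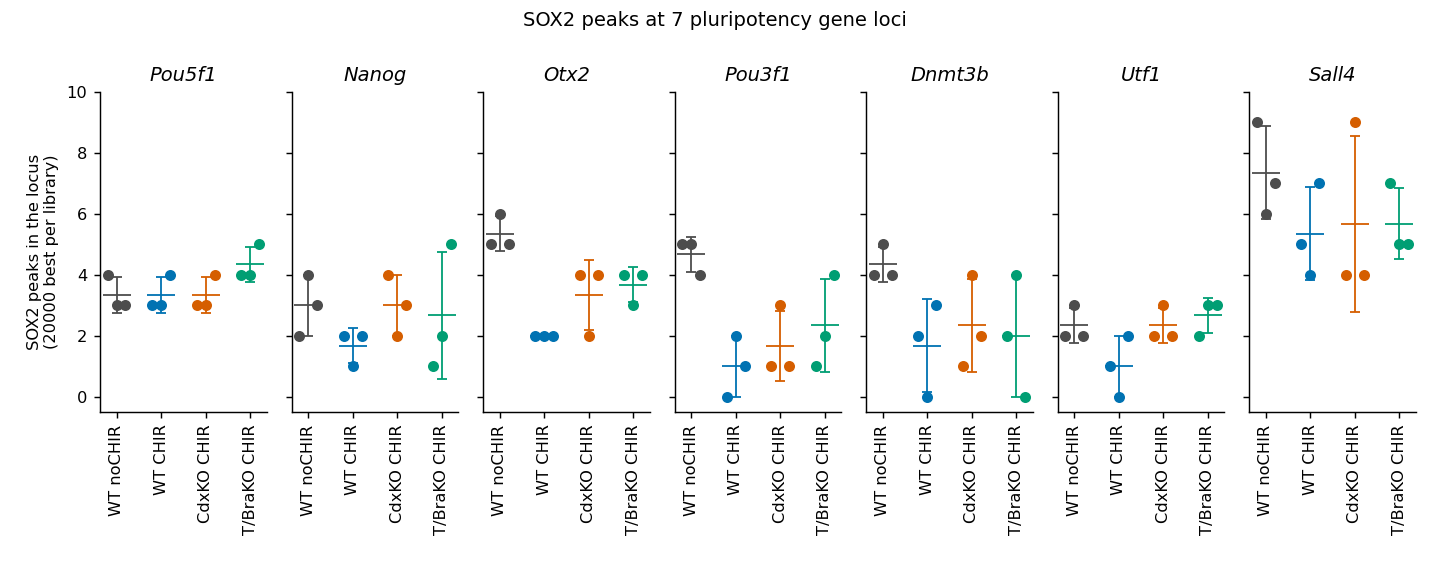
Number of SOX2 peaks among the 20000 best of each library (vertical axis) in each of the 7 loci. Each point is a library, with replicates 1 to 3 from left to right in a group, and each bar is the mean ± SD of 3. At Otx2 the noCHIR libraries had 5 or 6 peaks and all 9 CHIR libraries 2 to 4, while at Pou5f1 the WT groups had the same mean of 3.33.

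Pou5f1 (chr17:35506018-35510772, forward strand) held the best SOX2 peak of the 7 loci in every SOX2 library but noCHIR replicate 3, where Sall4 ranked 215 and Pou5f1 223. Its SOX2 peak count was 4, 3 and 3 with noCHIR and 3, 3 and 4 with CHIR. The counts were alike, but the order of the sites differed. At the site 1960 bp upstream (chr17:35503629-35504475), which carries the composite, SOX2 ranked 933, 1799 and 1967 with noCHIR and 65, 191 and 122 with CHIR. Every CHIR library ranked it better, and so did the CdxKO libraries, at 107, 134 and 230, and the T/BraKO libraries, at 83, 100 and 132. Fold enrichment there was 26.6, 23.5 and 10.97 with noCHIR and 43.2, 22.2 and 45.8 with CHIR, and these values overlapped. At the site 890 bp upstream (chr17:35504486-35506082) the ranks were 119, 338 and 223 with noCHIR and 493, 295 and 274 with CHIR, which overlapped. That site was therefore the best of the locus in every noCHIR library, and the site 1960 bp upstream was the best in every WT CHIR library. Of the 1589 regions called in all 6 WT libraries, 21.3% ranked better in every CHIR library than in every noCHIR library and 11.7% ranked worse. Of the 3 such regions in the loci, 1 ranked better, the Pou5f1 site, and 0 ranked worse. Further out, the site 3386 bp upstream was called in 3 of 3 noCHIR and 2 of 3 WT CHIR libraries.

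At Nanog (chr6:122707489-122714633, forward strand) the leading SOX2 site lay 39 bp upstream of the gene start (chr6:122706949-122707684) and carried the composite. SOX2 ranked there 1133, 1804 and 2116 with noCHIR. With CHIR it ranked 375 and 2153 in replicates 2 and 3 and 21843, just outside the 20000 best, in replicate 1. The WT groups overlapped, and the mutant libraries ranked it between 380 and 1289. A second site 8584 bp downstream of the start (chr6:122715779-122716357) behaved differently. It ranked 3771, 4418 and 7141 with noCHIR, whereas with CHIR it ranked 54832 and 168356 in replicates 1 and 3 and had no peak in replicate 2. In CdxKO it ranked 7065, 5962 and 154381, so 2 of these 3 libraries called it, and in T/BraKO 29305, 6610 and 25071, where 1 of 3 did. The site 4208 bp upstream was called in 2 of 3 noCHIR and 1 of 3 WT CHIR libraries.

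Sall4 (chr2:168748332-168767943, reverse strand) had the most SOX2 peaks, with 9, 6 and 7 for noCHIR and 5, 4 and 7 for CHIR, which overlapped. Its best site lay 9299 bp upstream (chr2:168776624-168778012). SOX2 ranked there 472, 396 and 297 with noCHIR and 294, 9173 and 1576 with CHIR. Only WT CHIR replicate 1 reached the noCHIR values, and the 6 mutant libraries ranked it between 652 and 3289, below all 3 noCHIR libraries. Within the introns, the site at 5182 bp ranked 1174, 923 and 1854 with noCHIR and 823, 42540 and 2935 with CHIR. Of the 6 Sall4 sites described, 5 were called with noCHIR in 2 or 3 libraries, and all 5 were also called in at least 2 WT CHIR libraries. They include the sites at 689, 1506 and 3224 bp from the start. The site at 3224 bp held the best peak of the locus in noCHIR replicate 3, at rank 215. The remaining site, 26698 bp from the start and inside an intron of the neighbouring gene Atp9a, was called in 2 CdxKO libraries.

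At Otx2 (chr14:48657677-48673819, reverse strand) the SOX2 peak counts were 5, 6 and 5 with noCHIR, 2, 2 and 2 with CHIR, 4, 2 and 4 in CdxKO and 4, 3 and 4 in T/BraKO. Its leading site was in an intron 10709 bp from the start (chr14:48662565-48663474). SOX2 ranked there 6014, 3513 and 843 with noCHIR and 59181, 6251 and 935 with CHIR. A site 19107 bp from the start, downstream of the gene, was called in 3 of 3 noCHIR, 1 of 3 WT CHIR and 3 of 3 libraries of each mutant. Other intronic sites, at 3311 and 4531 bp, were called in 2 of 3 noCHIR libraries. With CHIR the first was called in 0 of 9 SOX2 libraries and had no peak in their full lists, and the second was called in 1 library of each genotype. Both lie in the long non-coding gene Otx2os1 as well.

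Pou3f1 (chr4:124656807-124660655, forward strand) was the gene whose best SOX2 peak passed the test given further on. The SOX2 counts were 5, 5 and 4 with noCHIR and 0, 2 and 1 with CHIR. The best rank in the locus was 1457, 892 and 4102 with noCHIR, and with CHIR it was 6982 and 12665 in replicates 2 and 3, with no peak among the 20000 best in replicate 1. Its leading site lay 11119 bp downstream of the start (chr4:124667699-124668429) and carried a SOX word. It ranked 1457, 892 and 6351 with noCHIR and 42400 and 12665 in 2 of the WT CHIR libraries, with no peak in the other. In the mutants it had no peak in the full list of 5 of 6 libraries and ranked 38799 in the other. The sites 10068 bp upstream (chr4:124646470-124647120) and 5368 bp downstream (chr4:124662000-124662293) were the pair called in all noCHIR and no WT CHIR libraries. The first ranked 7005, 6910 and 4102 with noCHIR and 652019 and 154127 in WT CHIR replicates 1 and 3. The second ranked 4395, 18920 and 8451 with noCHIR and 126231 in WT CHIR replicate 2, and no other WT CHIR library had a peak at either. The site 3214 bp upstream was called in 3 of 3 noCHIR, 1 of 3 WT CHIR, 3 of 3 CdxKO and 2 of 3 T/BraKO libraries. A site in the UTR 541 bp into the gene was called in 0 of 3 noCHIR and 2 of 3 T/BraKO libraries.

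Dnmt3b (chr2:153649450-153687730, forward strand) had SOX2 counts of 4, 5 and 4 with noCHIR and 2, 0 and 3 with CHIR. Its leading site, 6197 bp upstream (chr2:153642618-153643573), ranked 2195, 4625 and 816 with noCHIR. With CHIR it ranked 32721 and 4522 in replicates 1 and 3 and had no peak in replicate 2. The site 9755 bp upstream (chr2:153639458-153639864) ranked 18784, 5741 and 2509 with noCHIR. With CHIR it ranked 180274 and 20343 in 2 libraries and had no peak in the other. Replicate 1 of noCHIR and replicate 3 of CHIR lay just inside and just outside the limit of 20000, so the call rested on a small difference of rank between them. The intronic site at 2332 bp was called in 3 of 3 noCHIR and 1 of 3 WT CHIR libraries. The site 7569 bp upstream was called in 2 of 3 noCHIR, 0 of 3 WT CHIR, 1 of 3 CdxKO and 0 of 3 T/BraKO libraries.

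Utf1 (chr7:139943789-139945112, forward strand) had SOX2 counts of 2, 3 and 2 with noCHIR and 1, 0 and 2 with CHIR, which overlapped. The composite-bearing site 1896 bp from the start, downstream of the short gene (chr7:139945502-139946157), ranked 2200, 7833 and 2105 with noCHIR. With CHIR it ranked 2660 and 2625 in replicates 1 and 3 and 122395 in replicate 2. In the mutants it ranked between 419 and 4817, so 11 of the 12 SOX2 libraries called it. The site 1187 bp upstream (chr7:139942185-139942707) ranked 14194, 12466 and 10736 with noCHIR and was found in the full list of 1 WT CHIR library, at 78760. A site 8450 bp from the start was called in 0 of 3 noCHIR, 1 of 3 WT CHIR and 3 of 3 T/BraKO libraries. The site at 6876 bp was called for SOX2 in 1 of 3 noCHIR, 0 of 3 WT CHIR and 2 of 3 libraries of each mutant. For β-catenin it was called in 3 of 3 WT libraries and in 2 of 3 of each mutant.

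**Figure D2:**
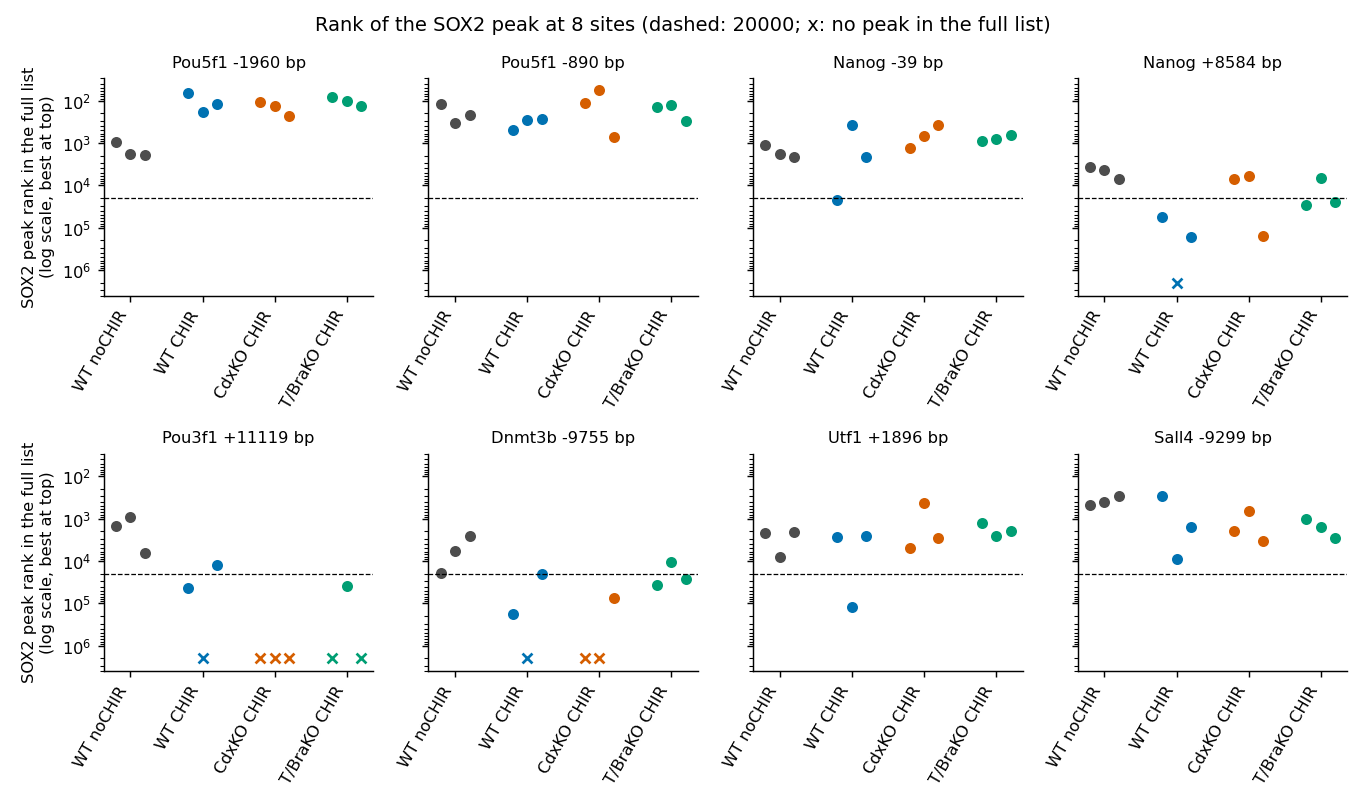
Rank of the SOX2 peak in the full list (log axis, best at the top) at 8 sites, each named by gene and distance of the summit from the gene start in bp. Points are libraries, the dashed line marks rank 20000, and a cross is a library with no peak. The Pou5f1 site at -1960 bp ranked 65 to 230 in the 9 CHIR libraries and 933 to 1967 with noCHIR, and the Pou3f1 site at 11119 bp had its 3 best ranks with noCHIR.

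Over the 29 sites, SOX2 was called in at least 2 of 3 libraries at 25 with noCHIR and at 11 with WT CHIR, and all 11 were among the 25. The number was 17 in CdxKO and 18 in T/BraKO, of which 15 in each were among the 25. Called in 3 of 3 libraries were 20 sites with noCHIR, 3 with WT CHIR and 11 in each mutant. These sites were admitted because some group called them. Over the genome too, noCHIR had the most and WT CHIR the fewest, with the mutants between, though there CdxKO lay above T/BraKO. There, 15008 regions were called for SOX2 in at least 2 of 3 libraries with noCHIR, 5694 with WT CHIR, 11348 in CdxKO and 10558 in T/BraKO. Called in 3 of 3 were 8296, 1993, 5778 and 5144 regions in the same order. Nothing particular to the 7 genes is read from these counts.

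The best rank in each locus was then compared with limma on the log2 scale over the 13731 gene loci that had a SOX2 peak in at least 3 libraries, and p-values were adjusted over all of them. All 7 genes were among these loci. A locus with no peak among the 20000 best was given the next rank after 20000, so a positive difference means a weaker best peak with CHIR. Only Pou3f1 passed, with a difference of 2.79 ± 0.579 (SE) and an adjusted p = 0.0207 from limma. This is 1 of 7 genes, beside 4.8% of all loci, of which 441 were weaker and 218 stronger with CHIR. The same gene alone had an unadjusted p under 0.05, beside 16.8% of all loci. The Pou3f1 call was lost without WT CHIR replicate 1 and without noCHIR replicate 1 or 2, where the adjusted p from limma was 0.0580, 0.0790 and 0.0819. It was also lost with the full lists, with the 5000 best peaks, with the fold of the best peak and with 50 kb on either side, and over all alternatives the adjusted p ran from 0.00877 to 0.209. Sall4 differed by 2.24 ± 1.03 (SE) and Dnmt3b by 1.92 ± 0.892, with limma adjusted p = 0.302 and 0.308. Utf1, Nanog and Otx2 differed by 0.65, 0.49 and 0.39, and Pou5f1, by -0.86 ± 0.589, was the only member whose best peak ranked better with CHIR. The median difference of the 7 was 0.65, beside -0.14 for all loci.

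**Figure D3:**
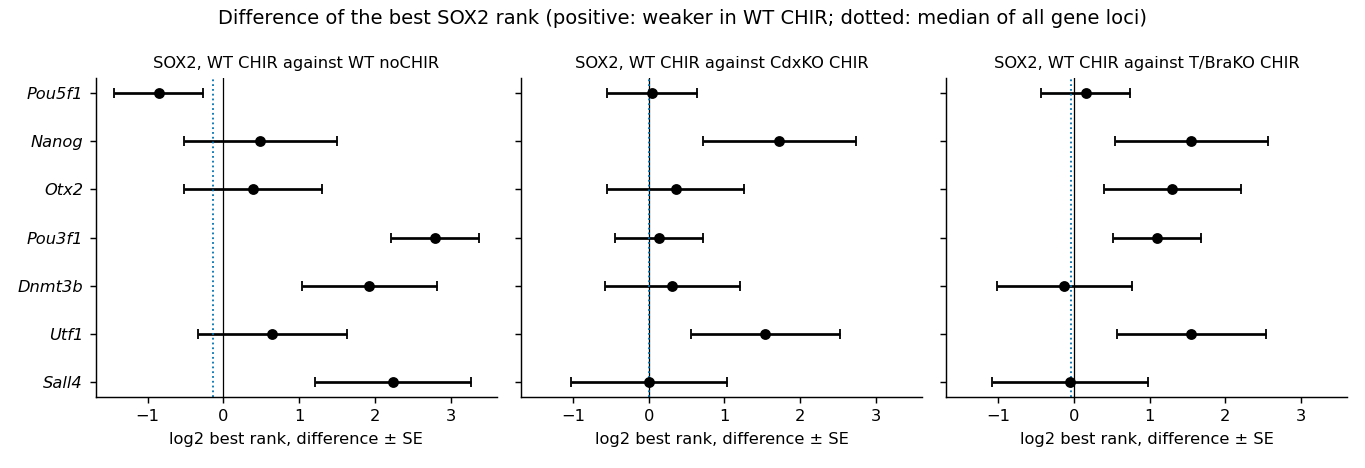
Difference of the log2 best SOX2 rank in each locus, WT CHIR minus the group named in the panel title, with its SE from limma (3 libraries a group). Positive values are weaker best peaks in WT CHIR, and the dotted line is the median of all gene loci tested. In the comparison with noCHIR, Pou3f1 lay furthest right at 2.79 and Pou5f1 was the only gene on the left, at -0.86.

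The share of all 20000 best SOX2 peaks with a SOX word near the summit moved with the same groups. It was 26.1 to 32.7% in the noCHIR lists and 14.9 to 21.0% in the WT CHIR lists. Its part in the fewer peaks at these loci was not tested. Of the 91 SOX2 peaks of the 7 loci in noCHIR lists 29.7% held a SOX word, and of the 48 in CHIR lists 35.4%.

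SOX2 occupancy in the mutants was compared with WT at equal treatment, to ask whether CDX factors or T/BRA altered it. No member passed limma in either comparison, and 0 of 7 had an unadjusted p under 0.05 in each, beside 10.7% of all loci against CdxKO and 9.26% against T/BraKO. Over all loci 0.197% passed against CdxKO and 0.0583% against T/BraKO. The largest differences were at Nanog, 1.73 ± 1.01 (SE) against CdxKO and 1.55 ± 1.01 against T/BraKO, and at Utf1, 1.54 ± 0.987 and 1.55 ± 0.987, all towards a weaker best peak in WT. These comparisons share the WT CHIR libraries. Pou5f1 differed by 0.05 ± 0.589 and 0.16 ± 0.589. The summed SOX2 counts of CdxKO and WT overlapped, and the lowest T/BraKO library, at 21 peaks, equalled the highest WT library.

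β-catenin was called at most of the WT SOX2 sites of these genes. Of the 11 sites called for SOX2 in at least 2 WT CHIR libraries, 10 were called for β-catenin by the same rule, which is 90.9%, beside 48.2% of 5694 such SOX2 regions over the genome. In CdxKO it was 9 of 17 (52.9%, beside 36.5%) and in T/BraKO 13 of 18 (72.2%, beside 47.0%). No test was made of these shares. Per locus, WT β-catenin had 2.48 ± 0.705 peaks at the 7 genes (SD, n = 3) and 0.731 ± 0.028 over all gene loci. The β-catenin peaks over the 7 loci numbered 23, 14 and 15 in WT, 13, 16 and 8 in CdxKO and 18, 21 and 18 in T/BraKO, and the genotypes overlapped except that all T/BraKO values lay above all CdxKO values. The strongest site was the Pou5f1 site 890 bp upstream, which holds a TCF/LEF word. β-catenin ranked there 730, 1378 and 628 in WT, 1042, 621 and 1805 in CdxKO and 525, 518 and 793 in T/BraKO, and the groups overlapped.

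No member passed limma for β-catenin against CdxKO, where 0.608% of 11185 loci did, or against T/BraKO, where 1.98% did. In each comparison 1 of 7 had an unadjusted p under 0.05, beside 9.09% of all loci against CdxKO and 10.9% against T/BraKO, which is near the background, and the values of both genes are given as a description. Against T/BraKO this was Dnmt3b, by 1.78 ± 0.397 (SE), with a limma adjusted p = 0.0532. It passed with 50 kb on either side and without WT CHIR replicate 3 (limma adjusted p = 0.0453 and 0.0433), and its adjusted p ran up to 0.822 over the alternatives. Its best β-catenin peak ranked 15471, 9859 and 6336 in WT, 12849, 12086 and 65585 in CdxKO and 2751, 2915 and 2970 in T/BraKO. All 3 T/BraKO libraries ranked it better than the other 6, and in each of them the peak was at the site 9755 bp upstream, which WT CHIR called in 1 of 3. Against CdxKO it was Utf1, by -1.37 ± 0.596 (SE), a stronger best peak in WT, with a limma adjusted p = 0.532. Utf1 ranked 5191, 4115 and 10694 for β-catenin in WT and 17210, 11387 and 25178 in CdxKO, which did not overlap.

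LEF1 had 3 to 6 of its best peaks at the 7 loci in each library. The WT libraries had 4, 3 and 3 peaks over the 7 loci, or 0.476 ± 0.082 per locus (SD, n = 3), beside 0.670 ± 0.035 over all gene loci. In CdxKO it was 0.714 ± 0.247 beside 0.665, and in T/BraKO 0.619 ± 0.218 beside 0.662. Pou5f1 and Sall4 held most of them. At the Pou5f1 site 890 bp upstream LEF1 ranked 4006, 1866 and 10561 in WT, 555, 5943 and 829 in CdxKO and 195, 86499 and 2231 in T/BraKO, so 8 of 9 libraries called it. Of the 29 sites it was the only site called for LEF1 in 2 or more WT libraries. At Sall4, 9299 bp upstream, it ranked 294 and 3242 in 2 T/BraKO libraries and 272442 in the other. Pou3f1 had no LEF1 peak among the 20000 best of any of the 9 libraries, and its best LEF1 rank in a full list was 23917. Only Pou5f1, Nanog, Otx2 and Sall4 had enough LEF1 peaks to be tested with limma. None passed against CdxKO or T/BraKO, and 0 of the 4 had an unadjusted p under 0.05, beside 4.51% and 4.67% of all loci. Over 13071 loci 0.023% and 0.0459% passed.

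**Figure D4:**
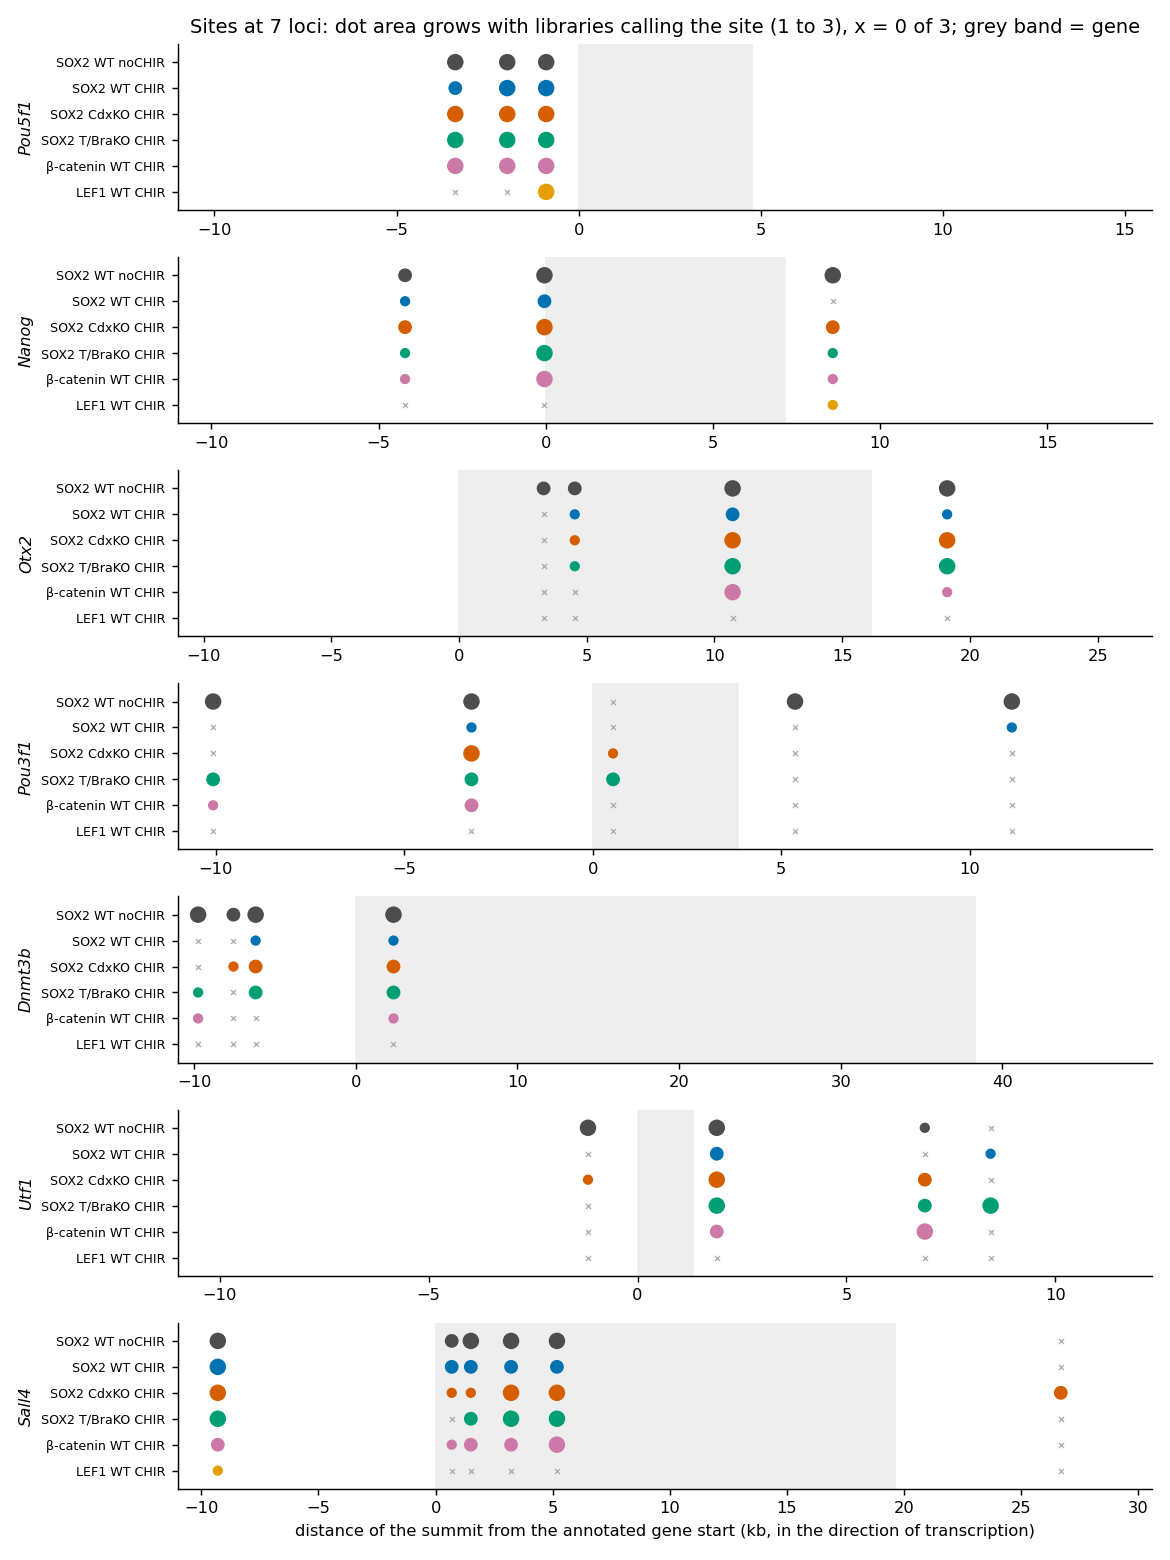
The 29 sites by distance of the summit from the gene start in kb (horizontal axis), with 1 row for each SOX2 group and for β-catenin and LEF1 in WT CHIR. Dot area grows with the number of libraries, 1 to 3, that called the site among their 20000 best, a cross is 0 of 3, and the grey band is the gene. Pou5f1 was occupied at 3 upstream sites in every SOX2 group, and LEF1 was called in 3 of 3 WT libraries at the innermost of them alone.

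**Figure D5:**
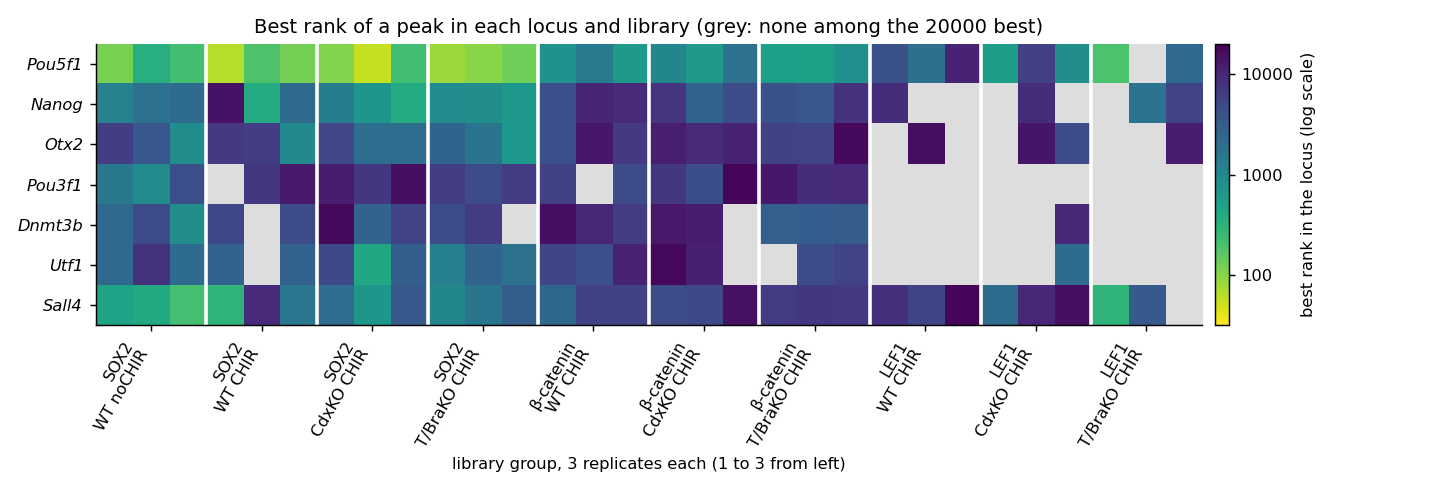
Best rank of any peak in each locus (rows) and library (columns, in groups of 3), on a log colour scale that runs from bright for the best ranks to dark for the worst. Grey is a locus with no peak among the 20000 best. The Pou5f1 row is brightest for SOX2 and β-catenin, and the Pou3f1 row is grey in all 9 LEF1 columns.

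Words for the factors were searched within 100 bp of the summits of the 29 sites. A SOX word was found at 9 sites (31.0%), against 14.9 to 32.7% of all 20000 best peaks in the 6 WT SOX2 lists. The composite was found at 3 sites (10.3%), against 0.72 to 1.81%. Among the SOX2 peaks of the 7 loci, pooled over lists, it was in 9.9% for noCHIR and 14.6% for WT CHIR. The TCF/LEF words were at 1 site (3.4%, against 9.44 to 12.7%) and the octamer at 2, both at Sall4 (6.9%, against 4.97 to 8.71%). The CDX word, NNATAAA with C or T at the first N and A or C at the second, was at 0 sites, against 8.53 to 15.9%, and the T-box word AGGTGTGA at 0, against 0.62 to 1.08%. The composite and the SOX words can share letters, as they do at Pou5f1 1960 bp upstream. All 3 composite sites were called for SOX2 in 3 of 3 noCHIR libraries and in 2 or 3 of the WT CHIR libraries. The 29 sites had to be called in at least 2 libraries of some group, a rule the 20000 best peaks of a list did not have to meet. The shares therefore compare unlike sets. These matches are descriptions of the sequence and were not tested.

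A list of 22 further pluripotency and epiblast genes was read in the same way. Their SOX2 peaks numbered 36.3 ± 4.04 with noCHIR and 32.0 ± 5.57 with CHIR (SD, n = 3), and the groups overlapped. With CHIR against noCHIR 3 of the 19 tested passed limma, 1 weaker and 2 stronger with CHIR, beside 4.8% of all loci, and 7 had an unadjusted p under 0.05, beside 16.8%. None of this list passed in the other 6 comparisons. For SOX2, an unadjusted p under 0.05 in limma was held by 2 of 19 against CdxKO and 0 against T/BraKO. The shares of all loci were 10.7% and 9.26%. For β-catenin it was 2 and 4 of 18, beside 9.09% and 10.9%. For LEF1 it was 3 and 2 of 14, beside 4.51% and 4.67%. The 3 that passed with CHIR against noCHIR were named after their values were seen. Stronger with CHIR were the signalling ligand gene Nodal and its inhibitor Lefty1, with differences of -3.44 ± 0.546 and -2.32 ± 0.530 (SE). Weaker was the naive pluripotency factor Klf2, at 5.04 ± 0.825. Sox2 itself had 6, 5 and 5 SOX2 peaks with noCHIR and 2, 4 and 1 with CHIR, which did not overlap.

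For each gene the locus whose log2 best rank ran most like its own over the 30 libraries was found. Pearson's r was 0.876 for Pou5f1 with Olfr90, 0.854 for Nanog with Fam169a, 0.863 for Otx2 with Chn2, 0.821 for Pou3f1 with Glod5, 0.749 for Dnmt3b with Prex2, 0.798 for Utf1 with Olfr90 and 0.828 for Sall4 with Galnt9. These are the highest of all gene loci, and the 30 libraries fall into the 3 factors, which all loci share. No member was the nearest to another.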

How the data were processed

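ChIP was sequenced (single-end) after DSG and formaldehyde fixation. Per the study's methods, reads were aligned to mm10 with BWA in nf-core/chipseq and narrow peaks were called in each library with MACS2. Which input served as control is not given in the sources used here, and the 12 input libraries were not analysed here. The deposited lists hold, per peak, the fold enrichment at the summit, a display score that the peak caller derived from −log10 q (not used here), −log10 p, −log10 q and the summit's offset, without read counts, so the sequencing depth is unknown. Peaks were assigned to gene bodies (GENCODE M21 basic) extended by 10 kb. The best rank in each locus was tested with limma 3.58.1 (R 4.3.3), with all libraries of a factor in the fit, loci with peaks in at least 3 libraries, Benjamini-Hochberg adjustment over all loci and a threshold of 0.05. Absent peaks were given the next rank after 20000. The test was checked on simulated ranks, where 62 of 100 loci shifted by 2 log2 units and 100 of 100 shifted by 6 passed, with 11 of 13531 unshifted loci. The simulated ranks had the same normal spread at every locus and in every group, taken from the noCHIR SOX2 libraries, and no upper limit. Real loci differ in spread and share the rank given to absent peaks, so these numbers may not hold for them.

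The members and lists were chosen with earlier results of these data known. All members and their described sites are named, and 2 alternatives were chosen after seeing the data. Libraries labelled as replicates share at most 8 identical peaks among the 20000 best, and the p-values measure the spread between these libraries. Replicate numbers did not pair the samples.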

Additional observations from a re-analysis of the deposited data

How the results depend on the processing

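The counts at the 7 loci depend on the length of the lists. For SOX2 in WT CHIR minus noCHIR the difference of -14.3 peaks turned to 23.3 with the full lists and to 3.0 with all peaks of −log10 q of at least 5, and was between -16.8 and -12.3 when a replicate was left out. For WT minus CdxKO -5.67 turned to 31.0 and 18.0, and for WT minus T/BraKO -7.33 turned to 45.0 and 22.7. For β-catenin in WT minus T/BraKO -1.67 turned to 9.0 and 2.67, and ran from -4.5 to 0.0 without a replicate. All 9 CHIR against 3 noCHIR SOX2 libraries differed by -10.0, and by -2.0 and -10.6 under those 2 settings, where the groups were no longer apart. The share of variance between genotypes was 51.6% for SOX2, and 36.8 to 73.3% without a replicate, with the highest value without WT CHIR replicate 3. For LEF1 it was 27.1%, and 76.7% with 50 kb. A share of some size arises between small groups without any effect of genotype, so these shares are not read as one. Of the SOX2 regions called in 3 of 3 libraries of 1 WT group and 0 of 3 of the other, 5 became 1 with the 5000 best peaks, 3 with full lists (2 of them in the CHIR direction) and 5 to 8 without a replicate.

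Loci passing limma numbered 659 for SOX2 with CHIR against noCHIR, 406 in fold order, 1205 with 50 kb, 172 on log2 fold (106 weaker and 66 stronger with CHIR) and 330 to 762 without a replicate. Against CdxKO, 27 became 15 with full lists, 80 on log2 fold and 0 to 197 without a replicate. Against T/BraKO, 8 became 4 with 5000 peaks, 5 with full lists, 5 in fold order, 0 with 50 kb, 20 with no filter, 79 on log2 fold and 0 to 139 without a replicate. For β-catenin, 68 against CdxKO became 31 in fold order, 120 with 50 kb, 33 with no filter, 130 on log2 fold and 2 to 64 without a replicate, and 222 against T/BraKO became 628 with 50 kb and 112 to 295 without a replicate. For LEF1, 3 against CdxKO became 0 with full lists, 0 on log2 fold and 0 to 3 without a replicate, and 6 against T/BraKO became 10 with 50 kb, 0 on log2 fold and 3 to 5 without a replicate.

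With the replicate block, these counts were 632 for CHIR against noCHIR, 0 and 0 for SOX2, 61 and 220 for β-catenin, and 0 and 3 for LEF1. Correlations of same-numbered libraries ran from -0.057 to 0.092, so the numbers were not taken as pairs. Counted over the 3 libraries of both groups together, 2 correlated best with their own number in all comparisons but 1, where 3 did. With the block the adjusted p of Pou3f1 in limma was 0.00877, and no other member's call changed.

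Some uncalled members changed direction. Pou5f1 went from -0.86 to 0.12 on log2 fold, and Nanog from 0.49 to -0.033 with 5000 peaks, -0.18 with 50 kb and -0.86 without WT CHIR replicate 1 (-0.86 to 1.79 over replicates). Otx2, at 0.39, was -0.11, -0.044 and -0.43 without WT CHIR replicate 1, WT CHIR replicate 2 or noCHIR replicate 3 (-0.43 to 1.33), and Utf1, at 0.65, was -0.33 without WT CHIR replicate 2 (-0.33 to 1.27). The cause of these changes was not tested. Groups of 3 libraries limit the precision, ranks depend on each library's other peaks, and intervals for counting error cannot be had without counts.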
